A study of Mus musculus with 3 samples.

Results

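The aryl hydrocarbon receptor (AHR) and the kynurenine arm of tryptophan breakdown were read through 8 genes, Ahr, Ahrr, Arnt, Tiparp, Cyp1b1, Kynu, Ido1 and Nfe2l2, out of 34289 features listed in each library. The genes were chosen by symbol and all 8 were found, each once. The libraries are single-cell RNA profiles of Langerhans cells (LC), the dendritic-type antigen-presenting cells of the epidermis, enriched with magnetic beads from trypsin-separated ear epidermis of male Cd1 mice. There were 3 groups with 1 library each: untreated ears that received a depilatory cream (Nair) only, ears that received croton oil with acetone and olive oil, and ears given multiple microneedle punches. Both treated groups were taken 48 h after the first treatment. Croton oil is a plant irritant, and microneedles are short spikes that puncture the skin. The number of animals behind a library is not given in the sources used here. With 1 library per group no difference has a replicate check, no test was made, and every interval below covers counting error only.

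AHR is a ligand-activated transcription factor that waits in the cytoplasm in a chaperone complex, moves to the nucleus when a pollutant, light product, microbial indole or kynurenine binds it, and pairs there with ARNT. The pair binds short DNA elements and drives detoxifying enzymes such as Cyp1b1, together with feedback inhibitors of the receptor, among them the repressor Ahrr and the ADP-ribosyltransferase Tiparp. Ido1 opens the kynurenine pathway by cleaving tryptophan, and kynureninase, the product of Kynu, splits kynurenine and its hydroxylated form further down. Nfe2l2 encodes NRF2, the regulator of antioxidant genes, which shares targets such as Nqo1 with AHR.

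On the GRCm39 build the receptor gene Ahr (ENSMUSG00000019256) lies at chr12:35547973-35585057 on the minus strand and its partner Arnt (ENSMUSG00000015522) at chr3:95341365-95404551 on the plus strand. The repressor gene Ahrr (ENSMUSG00000021575) spans chr13:74359237-74440462 on the minus strand, and Tiparp (ENSMUSG00000034640) chr3:65435320-65463365 on the plus strand. Cyp1b1 (ENSMUSG00000024087) is at chr17:80008966-80022532 on the minus strand. Kynu (ENSMUSG00000026866) is at chr2:43445309-43572734 on the plus strand, Ido1 (ENSMUSG00000031551) at chr8:25074150-25087025 on the minus strand and Nfe2l2 (ENSMUSG00000015839) at chr2:75504739-75534985 on the minus strand. All 8 are protein-coding, and the positions are whole gene spans from exon to exon with introns and untranslated ends. Annotated non-coding genes or pseudogenes overlap Ahr, Ahrr, Tiparp and Nfe2l2 on the opposite strand, and Arnt and Nfe2l2 on the same strand, so reads from those overlaps cannot be told apart with certainty.

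RefSeq promoter windows (build GRCm38.p6, a different build from the gene positions above) were matched for 5 of the 8 genes, Ahrr, Arnt, Tiparp, Cyp1b1 and Nfe2l2. The 250 bases upstream of the start are printed for Ahrr, Tiparp and Cyp1b1, the 3 textbook AHR targets of the set, whose levels are compared with that of the receptor below. They run 5' to 3' on the gene's strand, and capitals mark the core of the xenobiotic response element (GCGTG, or CACGC where it lies on the other strand). The windows are chr13:74292332-74292581, minus strand, for Ahrr, chr3:65528197-65528446, plus strand, for Tiparp, and chr17:79715062-79715311, minus strand, for Cyp1b1.
Ahrr: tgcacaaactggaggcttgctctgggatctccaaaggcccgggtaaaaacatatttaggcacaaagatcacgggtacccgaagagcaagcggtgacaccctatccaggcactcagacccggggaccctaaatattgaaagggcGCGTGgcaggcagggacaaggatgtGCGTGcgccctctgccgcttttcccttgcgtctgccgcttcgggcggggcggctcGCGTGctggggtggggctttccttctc
Tiparp: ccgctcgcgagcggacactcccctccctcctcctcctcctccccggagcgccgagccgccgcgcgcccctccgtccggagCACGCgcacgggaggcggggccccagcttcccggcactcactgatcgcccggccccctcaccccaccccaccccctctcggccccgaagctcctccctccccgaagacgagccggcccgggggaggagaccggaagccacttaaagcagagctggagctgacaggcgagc
Cyp1b1: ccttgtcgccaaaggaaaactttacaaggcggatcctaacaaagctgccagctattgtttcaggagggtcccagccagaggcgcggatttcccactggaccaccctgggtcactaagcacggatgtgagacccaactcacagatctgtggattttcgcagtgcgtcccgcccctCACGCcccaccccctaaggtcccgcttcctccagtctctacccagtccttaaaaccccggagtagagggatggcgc
The Ahrr window held 3 cores, the Tiparp window 1 and the Cyp1b1 window 1, and the Arnt window also held 1. The Nfe2l2 window held none. Of 32851 promoter windows of the same length, 28.2% held at least 1 core and 2.77% at least 3. The core of the antioxidant response element (TGACNNNGC, both strands) occurred 2 times in the Arnt window and 1 time in the Nfe2l2 window, against 10.2% of all windows with at least 1. A match is a run of letters and not a shown binding site.

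In the order untreated, croton oil, microneedle, the deposited libraries held 9876, 8241 and 6945 cells at a median of 11623, 12509 and 16427 unique molecular identifiers (UMIs, counted RNA molecules) per cell. Between 13 and 32 cell barcodes were shared by a pair of libraries. LC were cells in which Cd74, H2-Aa, H2-Ab1 and H2-Eb1 made up at least 2% of UMIs and Epcam had at least 2 UMIs, split by at least 1 UMI of Ccr7, the chemokine receptor of migrating dendritic cells. This left 8632, 5638 and 5227 Ccr7-negative LC and 19, 284 and 68 Ccr7-positive LC in the untreated, croton oil and microneedle libraries. All 9 LC markers exceeded 10 CPM (UMIs of a gene per 1000000 UMIs) in Ccr7-negative LC of every library. Cd74, H2-Aa, H2-Ab1, H2-Eb1 and Epcam among them set the gate, so their levels cannot check the LC label. Only Cd207 (langerin), Cdh1, Mfge8 and Ltc4s bear on it, with Cd207 at 568, 313 and 463 CPM. The same cells differed in the summed markers of other types. The 8 T cell markers summed to 3.48, 70.6 and 12.1 CPM and the 12 monocyte and macrophage markers to 371, 1827 and 792 CPM, with 5, 4 and 4 of the 12 above 10 CPM and C1qa alone at 59.3, 1512 and 487 CPM. T cell markers above 10 CPM numbered 2 of 8 with croton oil and 0 of 8 in the other libraries. The 10 keratinocyte markers summed to 262, 208 and 52.9 CPM (7, 6 and 2 above 10 CPM), the 8 neutrophil markers to 2652, 2739 and 4070 CPM (2, 4 and 3 above 10 CPM, with Il1r2 alone at 2490, 2669 and 3967 CPM and S100a8 and Retnlg at 0 in the untreated library) and the 4 cell cycle markers to 120, 48.0 and 90.7 CPM (3, 1 and 2 above 10 CPM). Without LC that carried at least 5 T cell UMIs or 1% keratin UMIs, an alternative chosen after the data were seen, the log2 difference from untreated was -1.05 for Ahr, 1.29 for Ahrr and -2.84 for Kynu in croton oil LC. The part of the monocyte, neutrophil and cell cycle markers in the results was not tested.

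In Ccr7-negative LC the receptor was lower and its repressor higher in both treated libraries than in the untreated one. Ahr stood at 397 CPM (95% Poisson interval 393 to 401) without treatment, 191 (188 to 194) after croton oil and 252 (249 to 256) after microneedling. The untreated library was highest and croton oil lowest, and no intervals overlapped. Ahr was 2.08-fold lower with croton oil than without treatment (2.04 to 2.12) and 1.57-fold lower with microneedles (1.55 to 1.60). Ahrr ran the other way, at 193 CPM (190 to 195), 477 (472 to 482) and 353 (349 to 357). Its ratio to untreated was 2.48 (2.43 to 2.52) in croton oil and 1.83 (1.80 to 1.87) in microneedle LC. Arnt, the shared partner, was at 70.1 CPM (68.5 to 71.7), 89.9 (87.8 to 92.0) and 94.3 (92.3 to 96.2), 1.28-fold and 1.34-fold the untreated level.

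Of the other targets of the set, Cyp1b1 was also higher in both treated libraries, at far lower counts, while Tiparp differed little. Tiparp was read at 585 CPM (580 to 589) without treatment, 563 (557 to 568) after croton oil and 680 (675 to 685) after microneedling. It was slightly below untreated after croton oil, with a ratio of 0.962 (0.951 to 0.974), and above it after microneedling, with a ratio of 1.16 (1.15 to 1.18). Cyp1b1, a cytochrome P450 that oxidises pollutants and steroids, was scarce, with 4 UMIs in the untreated, 21 in the croton oil and 22 in the microneedle LC. These counts came from 3, 19 and 16 cells and amount to 0.0372, 0.273 and 0.231 CPM, where a count of 0 would allow 0.0279 to 0.039 CPM. The ratio to untreated was 7.33 (2.47 to 29.4) in croton oil and 6.21 (2.11 to 24.8) in microneedle LC. The other classical AHR target enzymes, Cyp1a1 and Cyp1a2, stayed at or below 0.0946 CPM in all 3 groups of Ccr7-negative LC, and Nqo1 at 0.27, 0.312 and 0.694 CPM.

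Kynu was lower and Ido1 higher in both treated libraries. Kynu was at 212 CPM (209 to 214) in untreated LC, 25.2 (24.1 to 26.3) after croton oil and 84.7 (82.9 to 86.6) after microneedling. The 3 libraries were far apart, 8.40-fold lower than untreated for croton oil (8.02 to 8.80) and 2.50-fold lower for microneedles (2.44 to 2.56). Ido1 was scarce in all 3 libraries, with 28, 147 and 326 UMIs, or 0.261 CPM (0.173 to 0.377), 1.91 (1.61 to 2.25) and 3.43 (3.06 to 3.82). By CPM its order was untreated, croton oil, microneedle, at 7.33 (4.87 to 11.4) and 13.2 (8.93 to 20.1) times the untreated level. The Ido1 UMIs came from 23, 101 and 143 cells. Shares of cells thinned to 3000 UMIs, given below, overlapped between the treated libraries. Nfe2l2 differed little, at 188 CPM (186 to 191), 160 (157 to 163) and 172 (169 to 174), a 1.18-fold and 1.10-fold lower level after croton oil and microneedling.

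**Figure D1:**
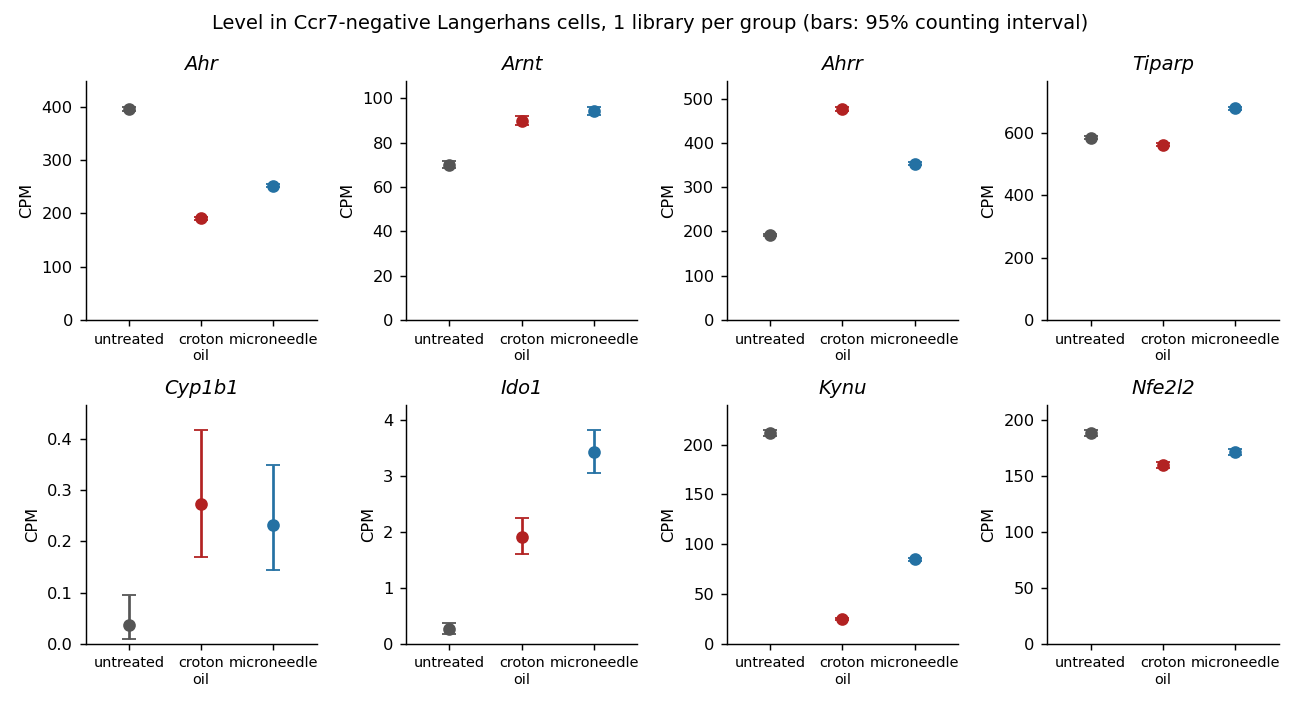
Level of each gene in CPM (y axis, from 0, its own scale per gene) in Ccr7-negative LC of the 3 libraries (x axis); points are summed UMIs of 1 library and bars the 95% Poisson interval. Ahr and Kynu are highest in the untreated library (397 and 212 CPM), Ahrr in the croton oil library (477 CPM) and Ido1 in the microneedle library (3.43 CPM).

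A gene was called higher or lower where log2((CPM + 5)/(CPM + 5)) was at least 2-fold, among genes with a mean of at least 10 CPM over both groups. Cyp1b1 and Ido1 did not reach that mean in Ccr7-negative LC, so 6 of the 8 genes were counted. In croton oil against untreated LC, Ahrr was called higher (1.29 on that scale), where 4.63% of 8383 genes were called higher. Ahr (-1.04) and Kynu (-2.84) were called lower, where 4.65% of all genes were. In microneedle against untreated LC no gene of the 6 was called higher, against 3.16% of 8387 genes, and Kynu (-1.27) was called lower, against 1.54%. Ahr (-0.64) and Ahrr (0.86) stayed under 2-fold there. Croton oil against microneedle LC gave no higher call, against 1.24% of 8282 genes, and 1 lower call, Kynu (-1.57), against 0.918%. Ahr was 1.32-fold lower (1.30 to 1.35) and Ahrr 1.35-fold higher (1.33 to 1.37) in croton oil than in microneedle LC. The 2 treated libraries share the untreated library as control, so the likeness of their differences is not independent.

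For Ahr, Ahrr and Kynu the share of cells with a UMI gave the same order of libraries as CPM once each cell had been thinned to 3000 UMIs, which left out 102, 32 and 58 shallower Ccr7-negative LC. Kynu was then seen in 41.1% of untreated cells (95% Clopper-Pearson interval 40.0 to 42.1), 6.55% of croton oil cells (5.91 to 7.23) and 18.1% of microneedle cells (17.1 to 19.2). Before thinning the shares were 74.4%, 17.5% and 47.5%. Ahr was in 61.2%, 38.0% and 47.3% of thinned cells, and Ahrr in 36.1%, 58.2% and 45.3%. Tiparp was in 65.0%, 68.0% and 71.7%, and since the first 2 shares run against its CPM no order was read from them. For comparison, Kynu had a UMI in 0 of 267 thinned macrophages of the microneedle library, with an exact interval up to 1.37%, at a median depth of 6686 UMIs against 17312 in Ccr7-negative LC. Ido1 was seen in 0.0586% (0.0190 to 0.137), 0.642% (0.450 to 0.888) and 0.774% (0.553 to 1.05) of thinned Ccr7-negative LC. Its UMIs came from few cells, and the shares of the 2 treated libraries overlapped, so no order was read between them. Thinned to 6000 UMIs, these Ido1 shares were 0.814% (0.595 to 1.09) with croton oil and 1.42% (1.11 to 1.78) with microneedles and did not overlap.

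Ccr7-positive cells were read in 2 classes, because the LC gate kept few of them. Inside the gate were the 284 croton oil and 68 microneedle cells, and the 19 untreated cells were too few to describe. A further 680 croton oil and 159 microneedle cells (7 untreated) carried Ccr7 but failed the LC gate and the gates for other types. That class was added after the data were seen. Of its cells 394 and 110 met only the Epcam limit of the LC gate and 118 and 6 only the limit on the 4 other genes. Its median share of the 4 gate genes was 0.349% and 0.123% of UMIs, while Fscn1, an actin bundler of mature dendritic cells, was at 1934 and 1902 CPM against 299.7 and 226 CPM in gated Ccr7-positive LC. Cd207 stood at 140.2 and 155 CPM in it, so its cells were not called LC here.

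Within the gate Ido1 had the largest ratio of the 8 genes between Ccr7 classes. In gated croton oil LC it was at 1.91 CPM without Ccr7 and 14.1 CPM (10.8 to 18.0) with it, and in microneedle LC at 3.43 and 28.1 CPM (20.2 to 37.9). The ratios were 7.36 (5.38 to 9.96) and 8.19 (5.79 to 11.3). Marker lists also differed between these gated classes. The 7 conventional dendritic cell markers summed to 455 and 363 CPM with Ccr7, against 215 and 187 without it, with 3 above 10 CPM in each. The monocyte and macrophage markers summed to 1135 and 615 CPM, against 1827 and 792, and the neutrophil markers to 2177 and 3179, against 2739 and 4070. The part of this in the Ido1 levels was not tested. Outside the gate Ido1 stood at 12.0 CPM (9.95 to 14.4) in the croton oil and 53.1 CPM (44.6 to 62.8) in the microneedle library, the latter being its highest level in any class of at least 50 cells. Thinned cells with an Ido1 UMI made up 2.98% (1.83 to 4.56) and 9.03% (5.03 to 14.7) of that class, and 5.61% and 16.0% when thinned to 6000 UMIs. Ido1 was thus read in a minority of Ccr7-positive cells. Before thinning 34 of 284 croton oil gated cells carried its 62 UMIs, and 13 of 68 microneedle gated cells its 42. Thinned to 3000 UMIs, 6.34% (3.80 to 9.83) and 2.99% (0.364 to 10.4) of gated cells had an Ido1 UMI. The microneedle interval then overlapped that of Ccr7-negative LC (0.553 to 1.05). At 6000 UMIs it was 2.47 to 16.6%, against 1.11 to 1.78%, without overlap.

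Both feedback inhibitors were lower with Ccr7. Tiparp in the croton oil library was at 563 CPM in Ccr7-negative LC, 365 (348 to 384) in Ccr7-positive LC and 157 (149 to 165) outside the gate. The microneedle values were 680, 550 (513 to 589) and 133 (119 to 147) CPM, so the lowest level was outside the gate in both libraries. Ahrr was at 477, 329 (312 to 346) and 166 (158 to 174) CPM in the 3 classes of the croton oil library and at 353, 314 (286 to 344) and 159 (144 to 175) CPM in those of the microneedle library. Outside the gate Tiparp was 3.58-fold (3.41 to 3.77) and 5.13-fold (4.61 to 5.72) lower than in Ccr7-negative LC of the same library, and Ahrr 2.88-fold (2.74 to 3.03) and 2.22-fold (2.01 to 2.45) lower. Marker lists differed between the same classes. The 9 LC markers summed to 55878 and 50315 CPM in Ccr7-negative LC and 11045 and 4684 CPM outside the gate. That list holds the gate genes Cd74, H2-Aa, H2-Ab1, H2-Eb1 and Epcam, so its difference was set in part by the gate itself. The 7 conventional dendritic cell markers summed to 215 and 187 CPM in Ccr7-negative LC and 869 and 1025 CPM outside the gate. Of the 7, 3 were above 10 CPM in each class. From Ccr7-negative LC to the cells outside the gate the 5 migratory dendritic cell markers, Ccr7 among them, went from 214 and 284 to 5351 and 5958 CPM, the monocyte and macrophage markers from 1827 and 792 to 183 and 99.2 CPM, and the neutrophil markers from 2739 and 4070 to 529 and 499.8 CPM. Outside the gate Clec9a had no UMI in either library, nor had Cd209a and Clec10a in the microneedle library. The part of this difference in cell makeup in the Tiparp and Ahrr levels was not tested.

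Ahr was also lower with Ccr7, at 191, 152 (141 to 164) and 135 (127 to 142) CPM in the croton oil classes and at 252, 219 (196 to 244) and 202 (185 to 220) CPM in the microneedle classes. Kynu differed between the libraries. In the croton oil library it was higher with Ccr7, at 25.2, 44.2 (38.2 to 50.9) and 50.1 (45.8 to 54.7) CPM. In the microneedle library it was at 84.7, 79.5 (65.9 to 95.1) and 60.8 (51.7 to 71.1) CPM. Nfe2l2 was at 160, 184 (171 to 197) and 152 (145 to 160) CPM with croton oil and at 172, 257 (232 to 284) and 252 (233 to 272) CPM with microneedles, and Arnt lay between 75.0 and 94.3 CPM in all 6 groups. Cyp1b1 had 20 UMIs outside the gate in the croton oil library, 18 of them in 1 cell.

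**Figure D2:**
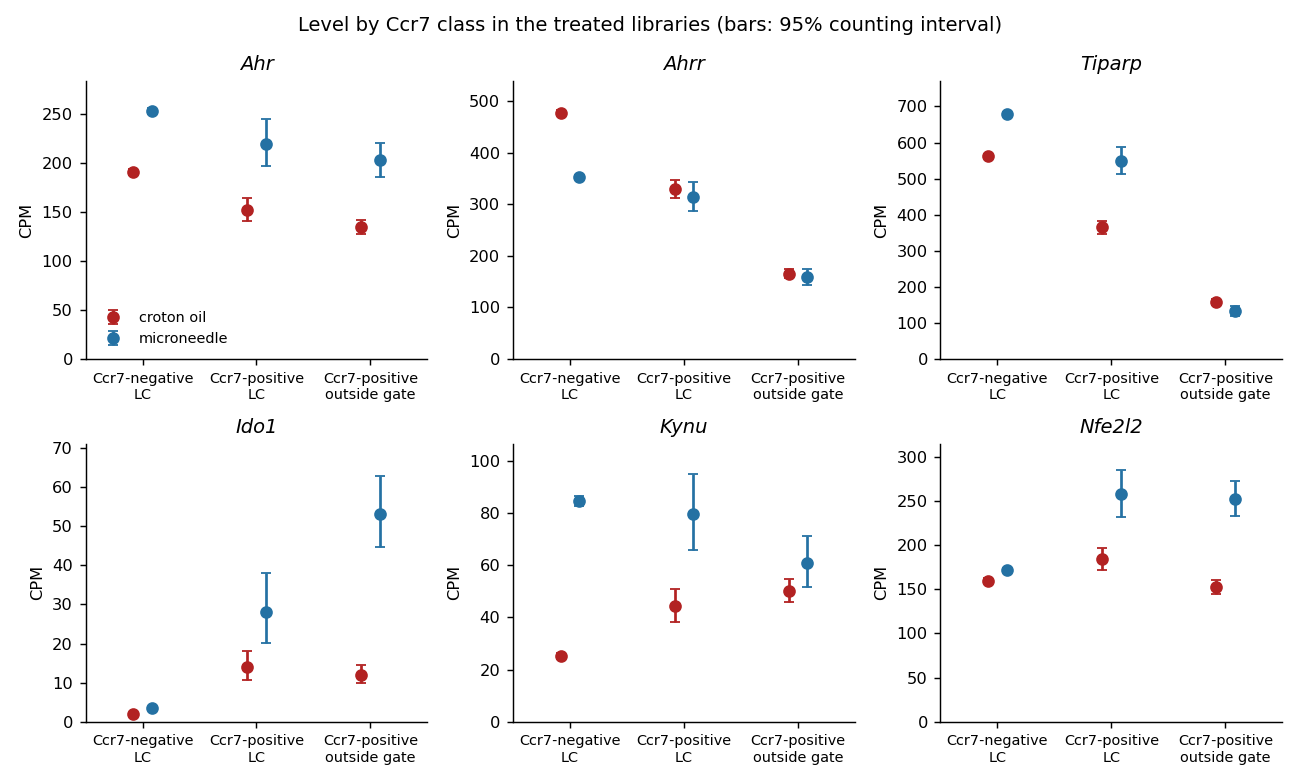
Level in CPM (y axis, from 0) of 6 genes in Ccr7-negative LC, Ccr7-positive LC and Ccr7-positive cells outside the LC gate (x axis) of the croton oil and microneedle libraries; points are summed UMIs of 1 library and bars the 95% Poisson interval. Tiparp and Ahrr are lowest outside the gate (157 and 133 CPM, 166 and 159 CPM), and Ido1 reaches 53.1 CPM there in the microneedle library.

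In gated croton oil LC none of the 6 genes counted was called between Ccr7 classes, against 2.52% of 8206 genes called higher and 0.792% lower. Ido1, at a mean under 10 CPM, was not counted. In gated microneedle LC 7 genes were counted and 1, Ido1 (1.97 on the log2 scale), was called higher, against 2.37% of 8432 genes, and none lower, against 0.190% (16 genes, and 40 with TMM scaling). Ido1 passed the minimum there only through the group in which it was high. Outside the gate none of 6 genes in the croton oil library was called higher, against 7.93% of 8209 genes, and Tiparp and Ahrr were called lower, against 11.6%. In the microneedle library Ido1 was called higher, against 9.99% of 8400 genes, again having passed the minimum only through its high group. Tiparp and Ahrr were called lower there, against 13.2%, and the Ahrr call was lost (-0.98) with doublets kept. At 2 or more Ccr7 UMIs, which left 145 croton oil LC, Tiparp was called lower (-1.44), and Kynu (1.01) and Ido1 (2.00) were called higher. All genes called under that setting numbered 342 higher and 486 lower of 8100 tested, and Ido1 was tested only through the Ccr7-positive group. The 8 T cell markers summed to 322 and 106 CPM in gated Ccr7-positive LC of the croton oil and microneedle libraries and to 11.4 and 4.26 CPM outside the gate.

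Keratinocytes, the epithelial cells of the epidermis, numbered 171, 208 and 80. Their Ahr was at 173 CPM (163 to 185) in the untreated, 66.3 (61.4 to 71.4) in the croton oil and 113 (101 to 125) in the microneedle library. Kynu there was at 47.2 (41.7 to 53.3), 4.45 (3.27 to 5.92) and 20.9 (16.2 to 26.5) CPM, and the order of the libraries for both genes was that of LC. LC transcripts were also present in these droplets: Cd74, H2-Aa, H2-Ab1, H2-Eb1 and Cd207 stood at 15.9 to 17.6% of their LC level in keratinocytes of the untreated library, 6.71 to 8.68% in those of the croton oil library and 12.5 to 19.5% in those of the microneedle library. Against that, Ahrr was at 17.4, 9.03 and 12.2% of its LC level and Kynu at 22.3, 17.7 and 24.7%, so Ahrr, at or near the level of the LC transcripts, was not read as keratinocyte expression. Kynu stood above the LC transcripts, but the part of LC RNA in its keratinocyte levels and in their order was not tested. Ahr, at 43.7, 34.7 and 44.6%, and Nfe2l2, at 42.9, 69.0 and 60.1%, were well above the LC transcripts. Ido1 had no UMI in untreated and microneedle keratinocytes (up to 0.54 and 0.936 CPM) and was at 0.379 CPM with croton oil, from 4 UMIs. Cyp1b1 ran against its LC order, at 1.62 CPM in untreated keratinocytes, from 9 UMIs in 3 cells with 5 in 1 cell. It had no UMI in croton oil and microneedle keratinocytes (up to 0.284 and 0.936 CPM). The keratinocytes differed in kind between libraries, with the suprabasal keratin Krt10 at 15873, 590 and 4236 CPM and the basal keratin Krt14 at 5175, 17823 and 16077 CPM, and the part of this in the Ahr and Kynu levels was not tested.

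Macrophages could be described only in the microneedle library, with 342 cells against 3 and 10 in the others. Tiparp was at 406 CPM (381 to 431) and Nfe2l2 at 404 CPM (379 to 429) in them, while Ahr was at 51.3 CPM (42.8 to 61.0) and Ahrr at 14.9 CPM (10.5 to 20.6). The 5 LC transcripts stood at 2.36 to 3.62% of their LC level in these droplets, Ahr at 20.3%, Ahrr at 4.23% and Kynu, at 1.21 CPM from 3 UMIs, at 1.43%, so Ahrr and Kynu were not read as macrophage expression. No Ido1 UMI was found, which allows up to 1.21 CPM. Neutrophils, 178 with croton oil and 377 with microneedles, had Nfe2l2 at 442 and 1066 CPM and Tiparp at 392 and 886 CPM, with Ahr at 11.9 and 13.9 CPM. That Ahr was 6.24% and 5.52% of its LC level, where the LC transcripts stood at 0.947 to 2.61% and 3.07 to 4.64%. With microneedles it was too near them to be read as neutrophil expression. With croton oil it came from 9 UMIs in 3 cells (5.45 to 22.6 CPM) and was not read as neutrophil expression either. Neutrophils held no Ido1 UMI, which allows up to 3.97 and 1.74 CPM. The 130 T cells of the croton oil library had Tiparp at 1345 CPM (1272 to 1420), Ahr at 259 CPM (228 to 293) and Ahrr at 168 CPM (143 to 196), with 1 Kynu UMI and no Ido1 UMI (up to 3.11 CPM).

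The order of levels over the 14 groups of at least 50 cells differed by gene. Ahr was highest in untreated Ccr7-negative LC and lowest in neutrophils, and the T cell and microneedle Ccr7-negative LC levels in between could not be told apart. Ahrr had its 4 highest levels in the treated gated LC, of which the Ccr7-positive groups overlapped. Tiparp was highest in T cells and lowest in microneedle Ccr7-positive cells outside the gate, whose level overlapped that of untreated keratinocytes. Kynu was highest in untreated LC, and below it the 2 gated microneedle groups overlapped. Ido1 was above 3.43 CPM only in Ccr7-positive cells. Nfe2l2 was highest in microneedle neutrophils, and its croton oil neutrophil and microneedle macrophage levels overlapped. Arnt stayed within 49.0 to 94.3 CPM over all 14 groups, and each level overlapped the next.

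**Figure D3:**
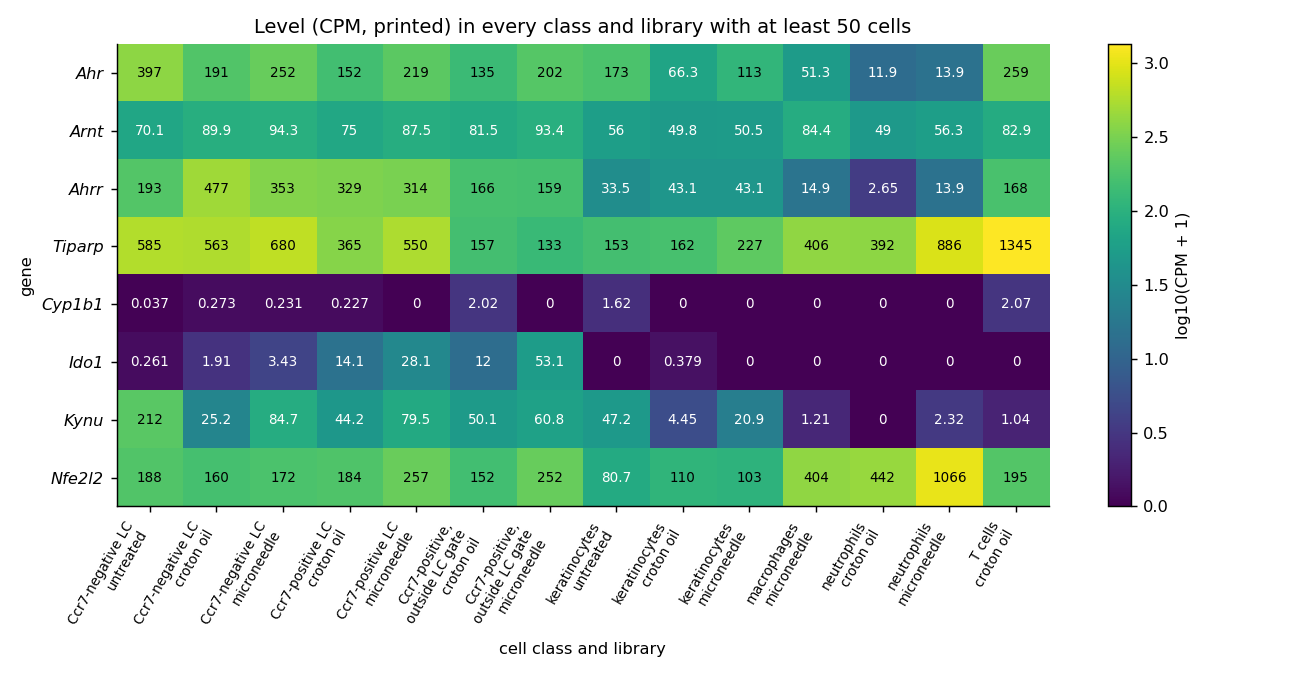
Level in CPM of the 8 genes (y axis) in each class and library with at least 50 cells (x axis); the printed number is the CPM and the colour log10(CPM + 1). Ido1 reads 12.0 to 53.1 CPM in the Ccr7-positive groups and at most 3.43 elsewhere, and Nfe2l2 is highest in microneedle neutrophils at 1066 CPM.

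Over the same 14 groups the genes most like Ahr among 9379 were Rad54l2 (r = 0.97), Iqcb1, Ttc5, Micu3 and Tasor2 (all 0.96), by Pearson's r of log2(CPM + 5). For Ahrr they were Scp2 and Sh3bp4 (0.97) and Sema6d (0.96), for Arnt AI662270 (0.93), Arl4c and Sh3kbp1 (0.92), and for Tiparp Rock1 (0.94), Rnf185 (0.92) and Slc37a3 (0.91). For Kynu they were Nbea and Dennd5b (0.97) and Adam23 (0.95), and for Nfe2l2 Zfand4 (0.96), Sp140 and Frmd8os (0.95). Within the set Ahr and Ahrr had r = 0.85, Ahr and Kynu 0.75, Ahr and Nfe2l2 -0.64, and Ahr and Tiparp 0.01. These values describe groups that share libraries and cell types, and Cyp1b1 and Ido1 were under the mean of 10 CPM set for the comparison.

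The wider pathways were read through 4 lists. Of the 8 AHR complex genes, 7 were tested in Ccr7-negative LC. With croton oil Ahrr was called higher, against 4.63% of all genes, and Ahr lower, against 4.65%, and with microneedles none was called, against 3.16% higher and 1.54% lower. The list's median was 0.04 for croton oil and 0.06 for microneedles, against -0.03 and 0.01 for all genes tested. Beside Ahr, the co-chaperone gene Ptges3 (-0.23 and -0.24 for croton oil and microneedles) was lowest in the list. Of the 12 AHR targets 3 were tested, Ahrr, Tiparp and the amino acid carrier Slc7a5 (-0.37 and -0.16), and the other 9, Cyp1a1 and Cyp1a2 among them, were under the minimum. The medians of those 3 were -0.05 and 0.22.

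Of the 18 genes of tryptophan breakdown and transport found, 7 were tested and 1 was called higher and 1 lower in each treated library. Of all genes 4.63% were called higher and 4.65% lower with croton oil, and 3.16% and 1.54% with microneedles. The higher one was Slc7a8, a carrier of large neutral amino acids, at 7.06 CPM without treatment, 75.6 after croton oil and 40.1 after microneedling, which entered the tested genes only through the treated groups. Its ratio to untreated was 10.7 (9.92 to 11.6) and 5.67 (5.25 to 6.14). The lower one was Kynu. The tryptophanyl-tRNA synthetase Wars1 (0.34 and 0.30) and the carrier chain Slc3a2 (-0.27 for microneedles) stayed under 2-fold, and the list's medians were -0.21 and -0.12. Between Ccr7 classes of croton oil LC 9 were tested and Il4i1, an amino acid oxidase that yields AHR ligands from tryptophan, was called higher, against 2.52% of all genes, having passed the minimum only through the Ccr7-positive group. It was at 8.45 CPM without Ccr7, 306 CPM with it and 816 CPM outside the gate, a ratio of 36.3 (33.0 to 39.9) within the gate. The microneedle values were 3.17, 172 and 636 CPM. Ido2, the relative of Ido1, was at 10.8, 26.5 and 31.1 CPM in the croton oil classes and at 10.0, 38.1 and 75.2 CPM in the microneedle classes. Between Ccr7 classes of gated microneedle LC 10 genes of the list were tested and 4 were called higher, Il4i1, Ido1, Ido2 and Slc7a8 (40.1 and 151 CPM), against 2.37% of all genes, and none lower, against 0.190%. Il4i1 and Ido1 were tested there only through the Ccr7-positive group. For croton oil the list's median was 0.07, against -0.06 for all genes, while Slc3a2 (-0.19) and the aminotransferase Got2 (-0.17) were lowest.

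Of the 28 genes of the NRF2 system and its targets 24 were tested for croton oil, with 4 called higher, against 4.63% of all genes, 2 lower, against 4.65%, and a median of 0.40, against -0.03. Hmox1 was among the 4 only because its croton oil level lifted its mean over the minimum. The ferritin chain Fth1 (2096 CPM in untreated, 5641 in croton oil), Txn1 (172 and 429.9), the haem oxygenase Hmox1 (3.54 and 16.6) and the thioredoxin reductase Txnrd1 (49.3 and 106) were higher. The glutathione synthesis gene Gclc (184 and 74.6) and the autophagy receptor Sqstm1 (781 and 333) were lower. For microneedles 23 were tested, and Txn1 alone was called higher (382 CPM), against 3.16% of all genes, with a median of 0.23, against 0.01. Txnrd1 (0.82), Sqstm1 (-0.95) and the small Maf gene Mafk (-0.87) stayed under 2-fold there. Between Ccr7 classes of croton oil LC the cystine carrier Slc7a11 was the 1 call among 25 genes, against 2.52% of all genes called higher, at 7.86 CPM without Ccr7, 45.8 with it and 96.9 outside the gate. It was tested only through the Ccr7-positive group, and the list's median was -0.02, against -0.06 for all genes. In the croton oil comparison Srxn1 (0.57), Mafk (-0.48) and Osgin1 (-0.63) were at the list's ends. In gated microneedle LC Slc7a11 was again the 1 call among 25 (5.72 CPM without Ccr7 and 54.8 with it), against 2.37% of all genes, and again was tested only through the Ccr7-positive group. Outside the gate 24 genes of the list were tested in each library, with 4 called higher and 2 lower with croton oil, against 7.93% and 11.6% of all genes, and 5 higher and 2 lower with microneedles, against 9.99% and 13.2%. Slc7a11 in both libraries and Srxn1 with microneedles, where it was at 9.99 CPM in Ccr7-negative LC, were counted there only through the group in which they were high. Nqo1 was at or below 0.694 CPM in Ccr7-negative LC, and Nfe2l2 itself was called in no comparison.

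**Figure D4:**
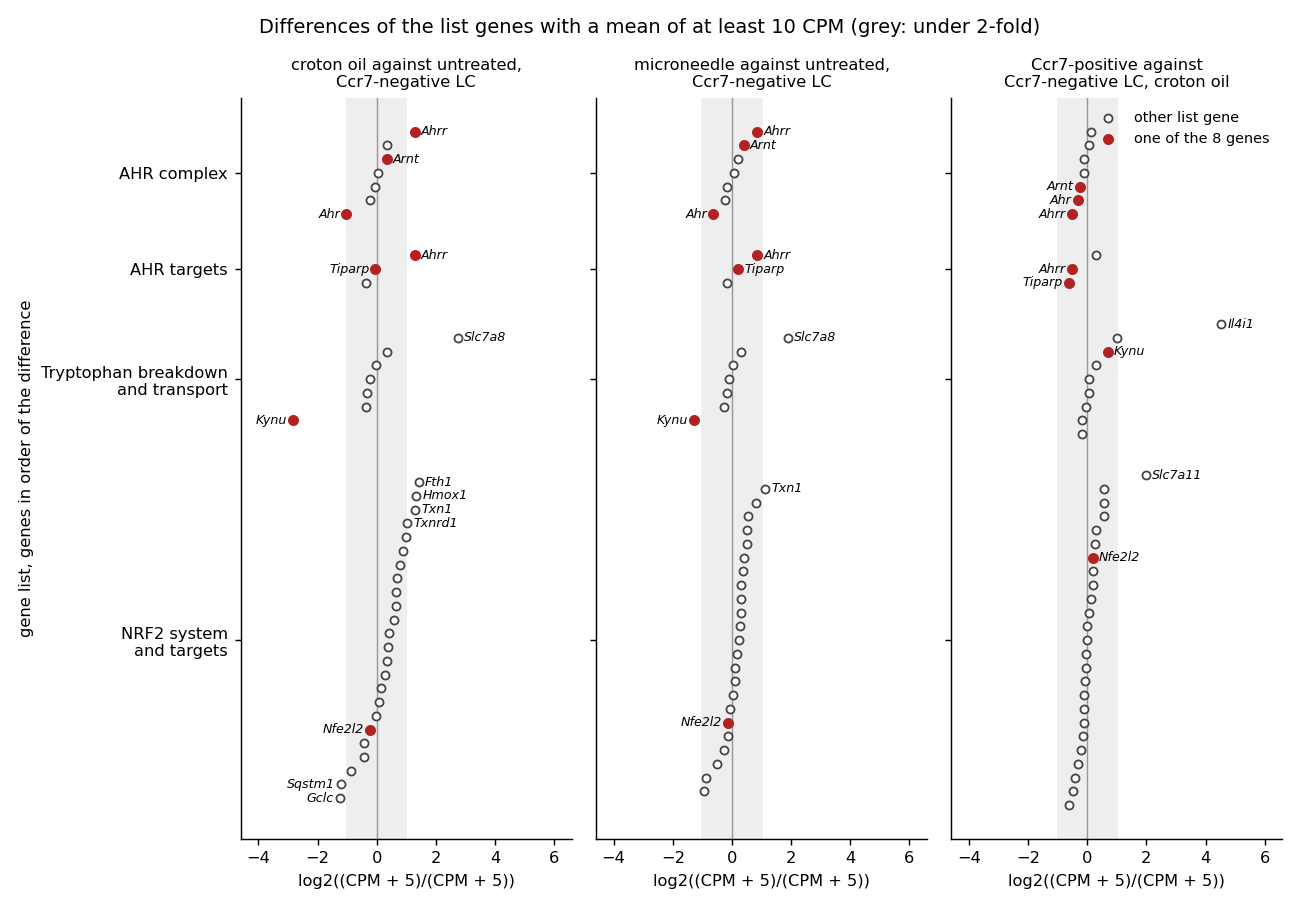
Difference on the log2((CPM + 5)/(CPM + 5)) scale (x axis) of each tested gene of the 4 lists (y axis, in order within a list) in 3 comparisons; filled points are the 8 genes, open points other list genes, and grey marks under 2-fold. Kynu lies farthest to the left with croton oil (-2.84) and Slc7a8 farthest to the right (2.74), and Il4i1 (4.53) stands apart between Ccr7 classes.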

How the data were processed

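Raw UMI counts per gene and cell of 3 single-cell libraries (10x Genomics 3' v3.1) were used as the authors deposited them. The counts were made with Cell Ranger 8.0 against GRCm39 per the submitters' processing notes (8.0.0 per the file headers), and the annotation release, intron counting and strand setting are not given in the sources used here. Library totals were 127666928, 119360952 and 117178809 UMIs.

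Cells with under 500 genes or over 10% mitochondrial UMIs were removed, and scrublet (in scanpy 1.11.5) scores removed the highest 0.8% per 1000 cells (773, 532 and 376 cells; its automatic threshold marked 5, 1 and 4). This left 9054, 7626 and 6479 cells. Besides LC, keratinocytes had at least 1% of UMIs from 6 keratin genes, neutrophils at least 2% from S100a8 and S100a9, T cells at least 5 UMIs of 7 T cell genes, and macrophages at least 0.1% from 8 genes. These limits were set after marker distributions were seen and before the levels of the 8 genes were read, and 2.44, 6.53 and 3.27% of cells fell in no class.

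UMIs were summed per class and library and given as CPM with exact 95% Poisson intervals, ratios with exact conditional binomial intervals (scipy 1.17.1). Calls used a pseudocount of 5 CPM. The calculations were tested on simulated data, and TMM factors came from edgeR 4.0.16. PCR copies were collapsed by UMI, and intervals and the limit of 3 counts cover counting error only. All 8 genes, the 2 highest and 2 lowest tested genes of each list in 3 comparisons, and the 5 (Ahr) or 3 genes of most like pattern were named; some list genes called in the other comparisons were named after their values were seen, and not all of them were named. A gene that this rule names is not reported here. The genes and lists were chosen with earlier results of these data known. Gene positions are from GENCODE M39, with all 8 identifiers matched.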

Additional observations from a re-analysis of the deposited data

Results flagged for a closer look

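Each of the following pairs had counting intervals on opposite sides of 1, with 1 library per arm, so the difference between treatments was not tested. Tiparp in Ccr7-negative LC was at 0.962 of the untreated level after croton oil and at 1.16 of it after microneedling. Kynu in Ccr7-positive cells outside the LC gate was at 1.99 times the level of Ccr7-negative LC in the croton oil library (1.80 to 2.20) and at 0.718 of it in the microneedle library (0.609 to 0.841).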

How the results depend on the processing

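No paired analysis was possible because each group has 1 library. Calls of the 6 counted genes between treated and untreated, or croton oil and microneedle, Ccr7-negative LC did not change under 13 alternatives, of which the higher Ccr7 limit leaves these cells as they are. Cyp1b1 and Ido1 could not be called there, except Ido1 at a minimum of 1 CPM, where it stayed under 2-fold, and Ido1 in microneedle LC ranged from 0.62 to 1.81 (the latter at a pseudocount of 1 CPM). Kynu in croton oil LC ranged from -3.02 to -2.79 on the log2 scale. A pseudocount of 1 CPM moved the genes called lower to 200 (from 129) for microneedle against untreated LC, 125 (from 76) for croton oil against microneedle LC, 112 (from 65) between Ccr7 classes of croton oil LC and 59 (from 16) of microneedle LC. Between Ccr7 classes of croton oil LC (207 higher, 65 lower), lower calls were 24 with at least 4 Epcam UMIs and 26 with doublets kept, and 2 or more Ccr7 UMIs gave 342 higher and 486 lower. Of microneedle LC (200 higher, 16 lower), lower calls were 7 and 28 at mean minimums of 20 and 1 CPM, 40 with TMM scaling and 123 with at least 4% MHC class II UMIs; 2 or more Ccr7 UMIs gave 558 higher and 447 lower, and cells of 5000 to 30000 UMIs gave 127 higher and 42 lower. The cause of these shifts was not tested. TMM moved the median of all genes there by -0.17, and 79.6% of calls were then higher against 92.6%. Of the 8 genes, Ido1 in microneedle Ccr7-positive LC was not counted at a minimum of 20 CPM. Ido1 in croton oil Ccr7-positive cells was called higher at a minimum of 1 CPM, in and outside the gate. Ahrr outside the gate in the microneedle library was no longer called lower (-0.98) with doublets kept. Kynu between Ccr7 classes of microneedle LC was -0.09, 0.26 with at least 4% MHC class II UMIs and -0.77 at 2 or more Ccr7 UMIs (23 cells). Counts limit the ratios of Cyp1b1, which had 4 to 22 UMIs in Ccr7-negative LC.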
